A study of Mus musculus with 24 samples.

Results

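The circadian clock genes described here were the activators Arntl and Clock, the repressors Per1, Per2, Per3, Cry2, Nr1d1 and Nr1d2, and the output factors Dbp and Tef. They were found by name, as every probe whose gene name or current symbol was that of a listed gene. This gave 20 probes for the 10 genes among the 41174 probes that were no controls. Of these, 13 probes for 9 genes were kept by the filter on signal strength, out of 15958 kept probes for 10891 genes in all. The only Per3 probe was not kept.

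RNA was taken from the gastrocnemius, a calf muscle of mainly fast fibres, of 24 male C57BL/6N mice in 3 diet groups of 8 and measured on 2-colour arrays. The mice were 3 months old at the start and ate 1 of 3 isocaloric diets for 8 weeks. The cHF group had the high-fat control diet, about 35% lipid by weight. In cHF+F, an n-3 LC-PUFA concentrate (46% DHA and 14% EPA) took the place of 15% of the dietary lipid, and in cHF+ROSI the control diet carried 10 mg/kg of rosiglitazone, an insulin-sensitising drug that acts on the nuclear receptor PPAR gamma. All 3 groups shared what followed: 10 h without food from 8:00 to 18:00, Chow from 18:00, and death between 9:00 and 11:00 on the next day. The hour at which each mouse died is not given in the sources used here, and a group without high-fat feeding or with another time of death was not analysed here. Differences are therefore between high-fat diets in the late morning after a night of Chow, and no value is a rhythm.

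Each array carried the RNA of 1 mouse in Cy5 against a common pool in Cy3, with no dye swap, so every value below is a log2 ratio of the mouse over the pool. The pool also held RNA of mice on a higher rosiglitazone dose that were not analysed here. The 24 arrays lay on 8 slides of 3, with 1 mouse of each diet on each slide. The cHF mouse was always at position 1 of its slide, the cHF+F mouse at position 2 and the cHF+ROSI mouse at position 3. Diet and position therefore cannot be told apart, within slides or with the slide as a block. Spots well above background in Cy5 made up 30.4% (cHF 3) to 91.1% (cHF+ROSI 4) of an array. These arrays stood apart from the other 22, at 41.5% to 61.3%. All 8 skeletal muscle markers, among them Acta1, Ckm and Myh4, were well above background on all 24 arrays.

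The clock of each cell is a loop. The proteins made from Arntl (BMAL1) and Clock bind E-boxes as a pair and switch on the Per and Cry genes, whose proteins later block that pair. The same pair drives Nr1d1 and Nr1d2 (REV-ERB alpha and beta), which in turn repress Arntl through ROR elements, and Dbp and Tef, factors that act through D-boxes. Arntl RNA thus peaks at a time of day far from the peaks of Dbp, Nr1d1 and the Per genes, and in muscle the loop takes time from light through the brain, from feeding and from glucocorticoids.

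Short stretches of promoter show the elements through which the loop is known to run. RefSeq windows of 300 bases around the start of transcription (250 before, 50 after; GRCm38.p6) were found for 9 of the 10 genes, all but Per2. They were searched on both strands for an E-box (CACGTG), a D-box (TTATGNAA) and the ROR element by its consensus. Over 32851 windows of all genes, 7.15% held the E-box, 3.38% the D-box and 0.384% the ROR element. Matches, in capitals and with their flanks, were found in Arntl, Per1, Per3 and Tef, and are printed 5′ to 3′ on the strand of the gene.
Arntl ROR element, chr7:113207529-113207555, + strand: gaaggcagAAAGTAGGTCAgggacgga
Per1 E-box, chr11:69098772-69098799, + strand: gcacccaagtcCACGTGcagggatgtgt
Per1 D-box, chr11:69098915-69098942, + strand: gggcctggcaTTATGCAAcccgcctccc
Per3 D-box, chr4:151044853-151044880, - strand: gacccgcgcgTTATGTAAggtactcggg
Per3 D-box nearer the start, chr4:151044806-151044833, - strand: ccgcccgcggTTATGTAAcccccgccgt
Tef E-box, chr15:81802535-81802562, + strand: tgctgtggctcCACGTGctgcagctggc
Tef E-box at its other start, chr15:81811265-81811292, + strand: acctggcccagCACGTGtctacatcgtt
The windows of Clock, Cry2, Nr1d1, Nr1d2 and Dbp held none of these letters. A match describes the window only, and binding was not measured.

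Between the diets no clock gene probe passed the test. The test was limma over all 15958 kept probes, called at a Benjamini-Hochberg adjusted p under 0.05. Comparisons named together below stand in this order: first cHF+F against cHF, then cHF+ROSI against cHF, last cHF+F against cHF+ROSI. In each, 0 of the 13 clock gene probes were called, and percent called over all probes was 0. At an unadjusted limma p under 0.05 the clock genes gave 1, 1 and 2 probes, against 6.86%, 4.7% and 6.67% of all probes. The methods' t-test called 0 probes after Benjamini-Hochberg adjustment as well, and gave 1, 3 and 2 clock gene probes at an unadjusted p under 0.05. The groups overlapped for all 13 clock gene probes in each comparison. Overlap was not counted over all kept probes, so this count marks nothing particular to the clock genes. With the slide as a block, limma called 6 probes in cHF+F versus cHF and 0 in the other comparisons, none of them of a clock gene. There 2 clock gene probes had an unadjusted p under 0.05 in each comparison, and the share of all probes was again not counted. The 2 comparisons with cHF share its 8 mice. The RNA came from whole muscle, in which fewer cells of a type and less RNA per cell cannot be told apart.

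The differences of most clock genes were below their spread between mice of the same diet, with Clock and Per2 in cHF+F versus cHF+ROSI above it (0.16 against a pooled SD of 0.12, and -0.26 against 0.19). The median size of the log2 difference over the 9 genes, each by its brightest kept probe, was 0.11 in cHF+F versus cHF, 0.19 in cHF+ROSI versus cHF and 0.16 in cHF+F versus cHF+ROSI. Over all probes it was 0.05, 0.05 and 0.06. The median signed difference of the 9 genes was 0.02, 0.02 and -0.09.

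**Figure D1:**
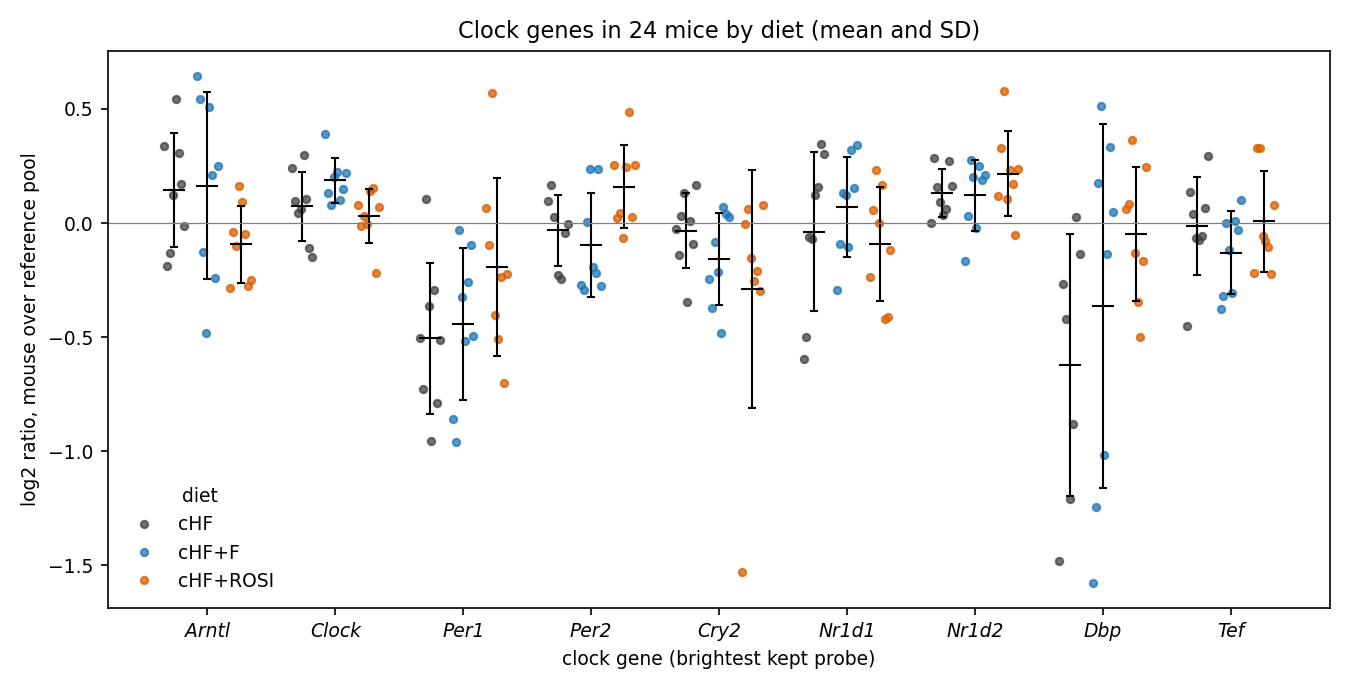
Log2 ratio of mouse over reference pool (y axis) for the 9 measured clock genes (x axis), 1 point per mouse, coloured by diet, with bars for the mean and SD of each group (8 mice; 7 in cHF for Per2 and Dbp). The diets overlap for each gene, and Dbp has the widest scatter, from -1.57 to 0.51.

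Arntl is the activator without which the loop stops. Its probe (chr7:113104645-113104704, + strand, mm8) was well above background on all 24 arrays. The log2 ratios ran from -0.19 through a median of 0.15 to 0.54 in cHF, from -0.48 through 0.23 to 0.64 in cHF+F and from -0.29 through -0.07 to 0.16 in cHF+ROSI. The lowest and the highest mouse of all were both cHF+F mice, and the cHF+ROSI mice lay closest together. Group means were 0.14 ± 0.25, 0.16 ± 0.41 and -0.09 ± 0.17 (SD, n = 8 each).
Arntl differed by 0.02 (SE 0.14) on the log2 scale in cHF+F versus cHF, by -0.24 (SE 0.14) in cHF+ROSI versus cHF and by 0.26 (SE 0.14) in cHF+F versus cHF+ROSI. The limma adjusted p was 0.995, 0.996 and 0.768, so none was called. The 95% intervals of the last pair, -0.51 to 0.04 and -0.02 to 0.54, both reach 0; as ratios they run from 0.700 to 1.03 and from 0.987 to 1.45. Within slides, 5 of 8 cHF+ROSI mice were below the cHF mouse of their slide.

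Clock encodes the partner of BMAL1 and is known to cycle little in most tissues. Its brightest probe gave -0.15, 0.08 and 0.30 as lowest, median and highest log2 ratio in cHF, 0.08, 0.18 and 0.39 in cHF+F, and -0.22, 0.05 and 0.15 in cHF+ROSI. All 8 cHF+F mice lay above the cHF+ROSI mean of 0.03 ± 0.12 (SD, n = 8), though the groups overlapped. The difference in cHF+F versus cHF+ROSI was 0.16 (SE 0.06) with an unadjusted limma p of 0.0207 and an adjusted p of 0.699. With the slide as a block the p were 0.00586 and 0.204. The difference was -0.021 when the Cy5 signal was used alone, so its direction depended on the scaling.
The other kept Clock probe gave 0.14 (SE 0.06) in cHF+F versus cHF, with an unadjusted limma p of 0.0405 and an adjusted p of 0.707, and 0.08 (SE 0.06) in cHF+F versus cHF+ROSI. The brightest probe gave 0.11 (SE 0.06) in cHF+F versus cHF. The probes thus differed in which comparison fell under an unadjusted 0.05. The remaining 2 of 4 Clock probes were too dim to keep.

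Per1 encodes a repressor of the loop that glucocorticoids and other acute signals also induce. The log2 ratios ran from -0.95 through a median of -0.51 to 0.10 in cHF, from -0.96 through -0.41 to -0.03 in cHF+F and from -0.70 through -0.23 to 0.57 in cHF+ROSI. The cHF+ROSI mice held the highest value, but their range covered most of the other groups. The difference in cHF+ROSI versus cHF was 0.31 (SE 0.16), higher in 7 of 8 slides, with a limma adjusted p of 0.996. With the slide as a block its unadjusted limma p was 0.0185 and its adjusted p 0.437, and without the slides of replicates 1 to 3 it was 0.17. In cHF+F versus cHF it was 0.06 (SE 0.16) and in cHF+F versus cHF+ROSI -0.25 (SE 0.16), with adjusted p of 0.988 and 0.812.
Of 5 glucocorticoid-responsive genes set beside Per1, 4 were measured and none was called in any comparison. In cHF+ROSI versus cHF, Fkbp5 differed by 0.42 (SE 0.22), Tsc22d3 by -0.03 (SE 0.14), Sgk1 by -0.07 (SE 0.13) and Klf9 by 0.04 (SE 0.07), 2 up and 2 down. Sgk1 had the only unadjusted limma p under 0.05 of the 4, at 0.0471 in cHF+F versus cHF+ROSI (0.27, SE 0.13, adjusted p 0.740).

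Per2 encodes a repressor of the same family as Per1. The value of cHF 5 was flagged by the scanner software and left out. The log2 ratios ran from -0.24 through -0.01 to 0.17 in 7 cHF mice, from -0.29 through -0.21 to 0.24 in cHF+F and from -0.07 through 0.15 to 0.48 in cHF+ROSI. In cHF+F, 6 of 8 mice lay below the cHF+ROSI mean of 0.16 ± 0.18 (SD, n = 8). The difference in cHF+F versus cHF+ROSI was -0.26 (SE 0.09; a ratio of 0.838, 95% interval 0.736 to 0.954), with an unadjusted limma p of 0.00973 and an adjusted p of 0.635. This was the smallest p of the 39 that the clock gene probes gave, and leaving out each mouse in turn kept it between 0.00227 and 0.0277. The probe was dim, with a mean signal to background of 2.67 in Cy3 against the filter of 2, and was not kept at a minimum of 3. Over 12 alternative runs the difference lay between -0.63 (processed signals) and -0.22 (array weights), with an unadjusted p under 0.05 in 10. The Per2 difference was 0.19 (SE 0.09) in cHF+ROSI versus cHF and -0.06 (SE 0.09) in cHF+F versus cHF.
The other Per2 probe did not reach the signal filter. Its group means were 0.00 ± 0.13 in cHF+F and 0.04 ± 0.08 in cHF+ROSI (SD, n = 8 each). Per3, a repressor of the same family, was well above background on 17 of 24 arrays in Cy5 and on 5 in Cy3. It had group means of 0.02 ± 0.10 in cHF, 0.02 ± 0.18 in cHF+F and -0.06 ± 0.07 in cHF+ROSI (SD, n = 8 each) and was not tested.

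Cry2 encodes a cryptochrome, the partner of the PER proteins. The log2 ratios ran from -0.35 through -0.01 to 0.17 in cHF, from -0.48 through -0.15 to 0.07 in cHF+F and from -1.53 through -0.18 to 0.08 in cHF+ROSI. The value of -1.53 belonged to cHF+ROSI 1, and the other 7 mice of that group lay between -0.30 and 0.08. The difference in cHF+ROSI versus cHF was -0.26 (SE 0.15), and without cHF+ROSI 1 it was -0.08. On that array the log2 Cy5 signal of 9.39 lay within the 8.91 to 9.95 of the other 23, whereas the log2 Cy3 signal of 9.68, that of the pool, lay above their 8.14 to 8.81. The Cry2 ratio and the pool's own Cry2 signal had r = -0.78 over 24 arrays and -0.14 without it. The dimmer Cry2 probe, not kept, lay between -0.30 and 0.09 over the cHF+ROSI mice.

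Nr1d1 encodes REV-ERB alpha, the main repressor of Arntl. The log2 ratios of its brightest probe ran from -0.60 through 0.03 to 0.35 in cHF, from -0.29 through 0.13 to 0.34 in cHF+F and from -0.42 through -0.06 to 0.23 in cHF+ROSI. All 3 ranges crossed 0 and each other. The differences were 0.11 (SE 0.13), -0.05 (SE 0.13) and 0.16 (SE 0.13) in the 3 comparisons in order. The limma adjusted p was 0.858 or more in each. Without the slides of replicates 1 to 3 the last 2 were -0.33 (unadjusted limma p 0.0124, adjusted 0.433) and 0.32 (0.0137, not called). The dimmer kept probe gave 0.00 (SE 0.07), -0.07 (SE 0.07) and 0.07 (SE 0.07).
Nr1d2 encodes REV-ERB beta, which acts on the same elements. Its log2 ratios ran from 0.00 through 0.13 to 0.29 in cHF, from -0.17 through 0.19 to 0.28 in cHF+F and from -0.05 through 0.20 to 0.58 in cHF+ROSI. The 3 ranges overlapped, and the highest mouse was a cHF+ROSI mouse. The differences were -0.01, 0.08 and -0.09 (SE 0.08 each) in the same order.

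Dbp encodes an output factor of the clock and is known for the widest daily swing of the loop's genes. Its probe (chr7:45577937-45577996, + strand, mm8) was well above background on all 24 arrays, and the flagged value of cHF 3 was left out. The log2 ratios of the 7 cHF mice ran from -1.48 through -0.42 to 0.03, those of the 8 cHF+F mice from -1.57 through -0.04 to 0.51 and those of the 8 cHF+ROSI mice from -0.50 through -0.03 to 0.36. The lowest mouse (cHF+F 1) and the highest (cHF+F 4) ate the same diet and were 4.25-fold apart. No cHF+ROSI mouse was among the 6 lowest, which were cHF 1, 5 and 6 and cHF+F 1, 2 and 5 on 4 slides.
Group means were -0.62 ± 0.57 (SD, n = 7), -0.36 ± 0.80 (SD, n = 8) and -0.05 ± 0.29 (SD, n = 8). The difference in cHF+ROSI versus cHF was 0.57 (SE 0.28; a ratio of 1.49, 95% interval 1.01 to 2.21), with an unadjusted limma p of 0.0473 and an adjusted p of 0.996. It kept its direction when each mouse was left out, from 0.43 to 0.68, with an unadjusted p under 0.05 in 14 of 24 such fits, and was higher in 6 of 7 slides. With the slide as a block it was 0.51 (unadjusted limma p 0.0258, adjusted 0.454). Without the slides of replicates 1 to 3 it was 0.34 (unadjusted limma p 0.204). The difference was 0.26 (SE 0.28) in cHF+F versus cHF and -0.31 (SE 0.27) in cHF+F versus cHF+ROSI, and without those slides they were 0.47 and 0.13.

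Tef encodes a factor of the same family as Dbp. The log2 ratios of its brightest probe ran from -0.45 through -0.01 to 0.29 in cHF, from -0.37 through -0.08 to 0.10 in cHF+F and from -0.22 through -0.07 to 0.33 in cHF+ROSI. The differences were -0.12, 0.02 and -0.14 (SE 0.10 each) in the 3 comparisons in order. The highest cHF+F mouse lay below the highest of both other groups. The other 2 kept Tef probes differed by -0.03 to 0.01 in the 3 comparisons.

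**Figure D2:**
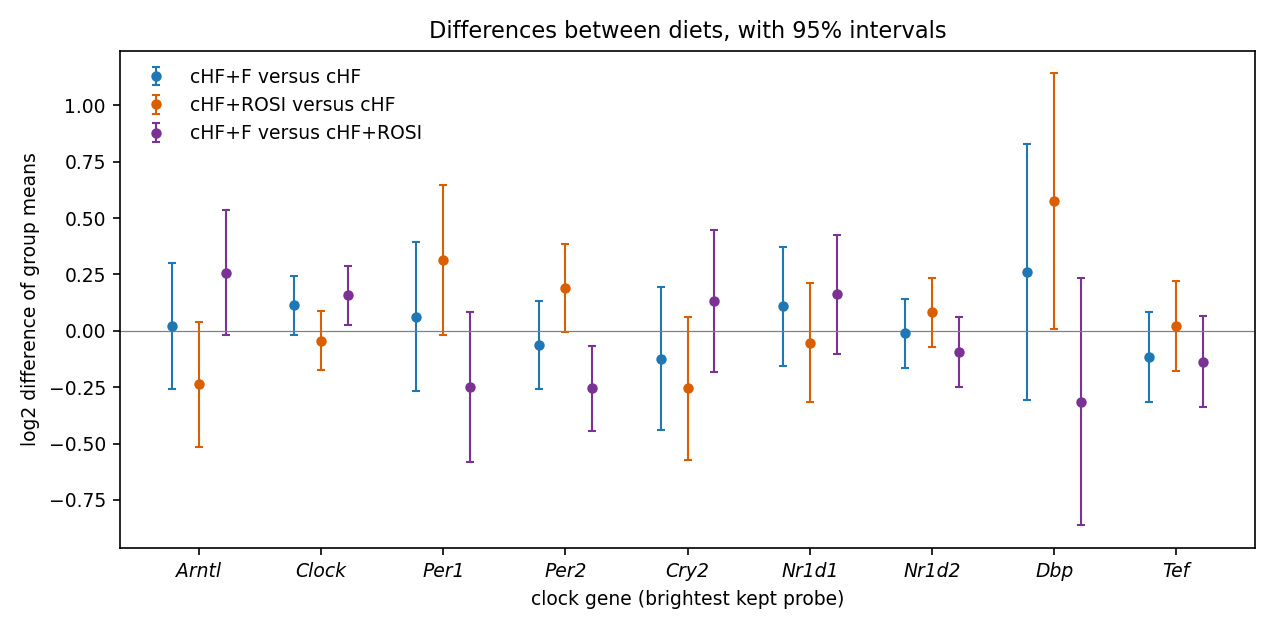
Log2 difference between diets with its 95% interval (y axis) for the brightest kept probe of each measured clock gene (x axis), 1 point per comparison from limma. The intervals of Dbp are the widest, and 3 of the 27 intervals leave out 0: Dbp in cHF+ROSI versus cHF, and Clock (whose sign turns with Cy5 alone) and Per2 in cHF+F versus cHF+ROSI, all with an adjusted p of at least 0.635.

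The scatter among mice of the same diet differed between clock genes, and for all but Dbp its rank depended on the scaling. The pooled SD within diets was 0.59 for Dbp, above 99.2% of all kept probes, whose median was 0.15. It was 0.35 for Per1 (above 96.9%), 0.34 for Cry2 (96.4%), 0.29 for Arntl (94.5%) and 0.28 for Nr1d1 (93.7%). The value for Cry2 rests on cHF+ROSI 1, and the dimmer Nr1d1 probe had 0.13 (39.7%). Tef followed with 0.21 (83.6%), Per2 with 0.19 (78.9%), Nr1d2 with 0.15 (56.2%) and Clock with 0.12 (30.2%).
With median centring the SD was 0.88 for Dbp, 0.67 for Per1, 0.53 for Tef, 0.51 for Nr1d1, 0.47 for Nr1d2, 0.34 for Per2 and 0.33 for Clock. With the scanner's processed signals it was 0.62 for Dbp, 0.41 for Per2 and 0.38 for Clock. In Cy5 alone Dbp was above 91.0% of all probes, Per1 above 89.4%, Clock 84.6%, Nr1d1 76.5%, Arntl 72.0%, Cry2 16.2% and Tef 7.80%.
For Dbp the SD was 0.62 in Cy5, the channel of the mice, and 0.14 in Cy3, the channel of the pool. For Arntl it was 0.43 and 0.35; signals of 1 channel also carry the brightness of the array. Slide took 56.4% of the sum of squares within diets for Dbp, 59.2% for Per1, 61.6% for Tef, 59.8% for Clock and 37.6% for Arntl, and 3.20% for Per2. Slide means take a share of this sum even where slides do not differ. The share was not counted over all kept probes, so these values alone show no slide effect. The part of the slide in these values was not tested beyond the values with slide means removed, below.

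Across mice, Dbp was lower where Arntl was higher. Over 23 mice Pearson's r was -0.84 and Spearman's rho -0.75, and Dbp was the probe with the most negative r to Arntl of all 15957.
Of the permutations of arrays, 100000 in number and two-sided, none gave so extreme an r in the Arntl family, whose p of 1e-05 is the smallest they can give. The Benjamini-Hochberg adjusted p over all kept probes was 0.0532 with Arntl as the anchor and 0.0456 with Dbp as the anchor (permutation p = 2e-05). The rho gave adjusted permutation p of 0.207 and 0.084. In the main run the relation was called with Dbp as the anchor only, by r and not by rho. With Arntl as the anchor, p was at the smallest value possible, so the adjusted p of 0.0532 could not decide the call. With 1000000 permutations the relation passed with that anchor, as given below.

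The sign was negative within each diet. The r was -0.75 among the cHF mice, -0.92 among the cHF+F mice and -0.41 among the cHF+ROSI mice, whose ranges of both genes were the narrowest. It was -0.82 with diet means removed and -0.77 with diet and slide means removed. Without the 2 mice farthest from the median it was -0.78 (Arntl, cHF+F 1 and 4) or -0.82 (Dbp, cHF 1 and cHF+F 1). Below and above the widest gap in Dbp, which took 18.2% of its range, r was -0.43 (6 mice) and -0.50 (17 mice).
The relation depended on the intensity-dependent normalization. Where each array was only centred on its median, r was -0.16 (permutation p = 0.473 with Dbp as the anchor). In Cy5 alone r was -0.74. In Cy3 alone, where each array carried the same pool, r was -0.51, and with both pool signals regressed out of the ratios it was -0.83. With the share of spots well above background the genes had r of 0.07 to 0.16 over 4 relations (adjusted permutation p = 0.756 for each). For Dbp and the Cy3 share rho was 0.34 (unadjusted permutation p = 0.117), and r was 0.41 without the 2 farthest arrays, cHF+F 3 and cHF+ROSI 4.

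**Figure D3:**
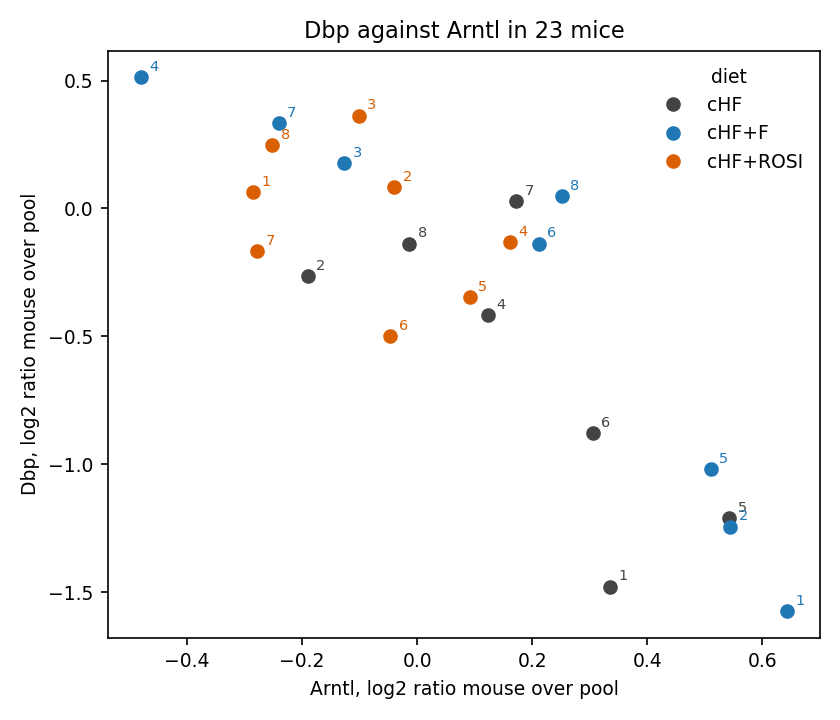
Dbp (y axis) against Arntl (x axis), both as log2 ratio of mouse over pool, 1 point per mouse for 23 mice, coloured by diet. Dbp falls as Arntl rises (r = -0.84; -0.16 when arrays were centred on the median alone), and the lowest and the highest in Dbp are both cHF+F mice.

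The repressors divided in their relation to Arntl. Of the 8 genes set against Arntl, 5 had a negative and 3 a positive r, and none was called. Percent called over all probes was 0 for negative and 0 for positive r. Dbp was among the 8, at the smallest p the permutations can give (1e-05, adjusted 0.0532). For negative r the count of 0 therefore rests on the number of permutations. Per2 had r = -0.72 over 23 mice (adjusted permutation p = 0.150), and its sign was negative under each alternative run and in each diet (-0.48, -0.92 and -0.19 in cHF, cHF+F and cHF+ROSI). In Cy3 alone Per2 and Arntl had r = -0.92, so the pool channel carried a relation of the same sign, and with the pool signals regressed out r was -0.77. Of the alternative runs, Per2 passed the adjusted permutation test with Arntl in 4 of 14, among them processed signals (-0.80, adjusted p 0.0266). Clock passed it in 2 of 15, and Per1 and Nr1d2 in 1 of 15 each, at either sign of r. Tef, Nr1d1 and Cry2 passed it in 0 of 15.
Per1 had r = -0.56 with Arntl (adjusted permutation p = 0.405) and -0.73 with processed signals (adjusted permutation p = 0.0399). It was negative in each diet (-0.43, -0.79 and -0.15 in cHF, cHF+F and cHF+ROSI). Per1 had 0.20 with arrays centred on the median and 0.30 in Cy5 alone. Nr1d2 had -0.51 (0.519), but 0.35 with median centring. Tef had -0.41 (0.692), but 0.30 with median centring and 0.00 in Cy5 alone. The signs of these 3 relations therefore depended on the scaling.
Clock, the partner of Arntl, had r = 0.49 with it (adjusted permutation p = 0.567), but 0.03 with diet and slide means removed, -0.53 in Cy5 alone and -0.01 with its other kept probe. With these means removed, Per2 had -0.79 and passed the adjusted permutation test, and Per1 had -0.49, Nr1d2 -0.34, Tef -0.20, Nr1d1 0.16 and Cry2 0.33. The permutation p of Per2 there can be too small, as the degrees of freedom of the removed means were not corrected for. In the main run Cry2 had 0.03, with -0.47, -0.47 and 0.39 in cHF, cHF+F and cHF+ROSI. Without cHF+ROSI 1, the mouse with the Cry2 value of -1.53, it was -0.37. Nr1d1 had 0.03 with its brightest probe and -0.12 with the dimmer. In the main run Nr1d1, the direct repressor of Arntl, thus showed no relation to it that these arrays could tell from 0. Its r was 0.18, -0.55 and 0.51 in cHF, cHF+F and cHF+ROSI. Its r also depended on the scaling, at -0.45 in Cy5 alone and 0.43 with median centring. The unadjusted permutation p was under 0.05 in 2 of 15 alternative runs and the adjusted p in 0.

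Set against Dbp over all mice, 6 of 8 genes had a positive and 2 a negative r. Only Arntl was called, where percent called over all probes was 0.0188 for negative and 0.0251 for positive r. Nr1d2 had r = 0.73 (adjusted permutation p = 0.0621), Tef 0.67 (0.128), Per1 0.62 (0.161), Nr1d1 0.44 (0.417) and Per2 0.43 (0.452). In Cy3 alone, the pool channel, Nr1d2 had r = 0.71 with Dbp, Per2 0.38, Nr1d1 0.21, Tef 0.09 and Per1 -0.49. With the pool signals regressed out, Nr1d2 had 0.69, Tef 0.63, Per1 0.60, Per2 0.49 and Nr1d1 0.36. Over all mice these 5 kept a positive sign under each alternative run, and in the main run none passed the adjusted permutation test. Of 15 alternative runs Nr1d2 passed it in 8, Tef in 5, Per1 in 3 and Nr1d1 in 1, and Per2 passed it in 0 of 14.
Nr1d2 and Tef held a positive r with Dbp in each diet, 0.87, 0.90 and 0.57 for Nr1d2 and 0.84, 0.85 and 0.62 for Tef in cHF, cHF+F and cHF+ROSI. So did Nr1d1 (0.44, 0.82 and 0.45) and Cry2 (0.37, 0.67 and 0.09). With diet and slide means removed Nr1d2 and Tef had 0.78 and 0.67. Per1 had 0.85 in cHF+F and 0.67 in cHF+ROSI but -0.04 in cHF. Per2 had 0.73 in cHF+F but -0.03 in cHF and -0.44 in cHF+ROSI. Clock had -0.52 (adjusted permutation p = 0.307), but -0.11 with diet and slide means removed, 0.15 with median centring and 0.12 in Cy5 alone. Cry2 had 0.12, 0.48 without cHF+ROSI 1 and -0.34 with diet and slide means removed. With these means removed Per1 had 0.66, Per2 0.50 and Nr1d1 0.40, and Per1, Nr1d2 and Tef then passed the adjusted permutation test. That test made no correction for the degrees of freedom that the removed means take, so its p can be too small.
Among the remaining pairs, given as description over 24 mice, Nr1d2 and Tef had r = 0.81, Per1 and Nr1d2 0.63, and Nr1d1 and Tef 0.56. Clock and Per2 had -0.10.

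**Figure D4:**
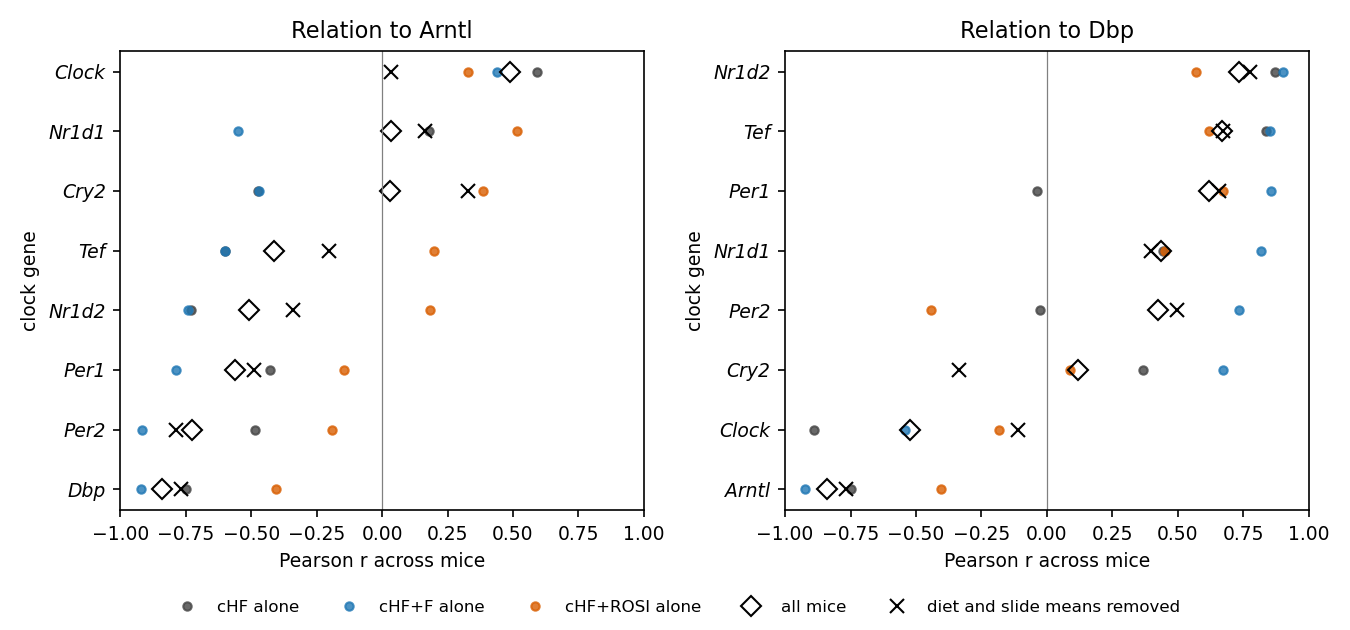
Pearson r (x axis) of each clock gene (y axis) with Arntl and with Dbp, for all mice (diamonds), for each diet of up to 8 mice alone (coloured points) and with diet and slide means removed (crosses). With Arntl, Dbp, Per1 and Per2 lie left of 0 in every set of mice and Clock right of 0. With Dbp, Arntl and Clock lie left of 0 in every set and Nr1d1, Nr1d2 and Tef right of 0. The signs of Clock, Per1, Nr1d1, Nr1d2 and Tef with Arntl and of Clock with Dbp turned under median centring or in Cy5 alone.

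The order of the mice can be followed gene by gene. cHF+F 1, the mouse highest in Arntl (0.64), was the lowest in Dbp (-1.57) and Nr1d2 (-0.17) and the highest in Clock (0.39). cHF+F 4, the lowest in Arntl (-0.48), was the highest in Dbp (0.51), while cHF+ROSI 3 was the highest in Per1 (0.57), Nr1d2 (0.58) and Tef (0.33). cHF 1 was the lowest in Tef (-0.45) and Nr1d1 (-0.60) and next to the lowest in Dbp (-1.48). Both ends of the Arntl and Dbp orders were thus cHF+F mice.

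**Figure D5:**
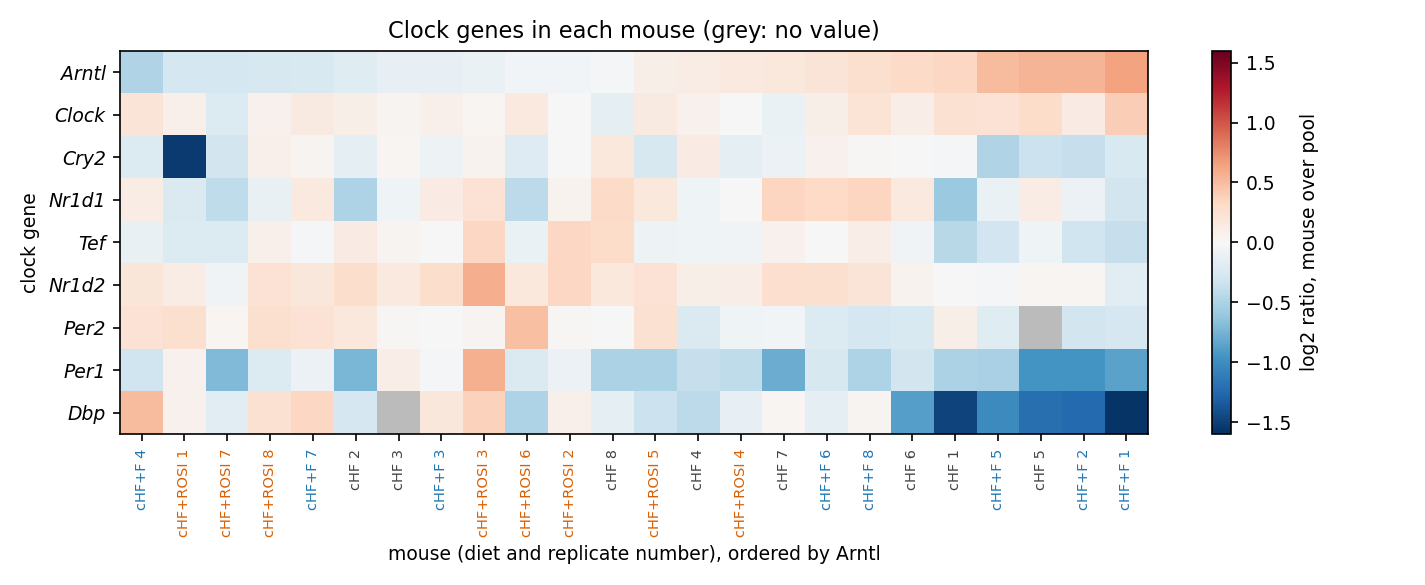
Log2 ratio of mouse over pool (colour scale) for each measured clock gene (y axis) in each of 24 mice (x axis), ordered by Arntl; grey cells have no value. The 6 mice highest in Arntl, at the right, hold the 6 lowest Dbp values (-1.57 to -0.88), whereas Nr1d1 follows no such order. Cry2 had r = 0.03 with Arntl over all mice and -0.37 without cHF+ROSI 1.

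Other genes of the clock were described from a list of 22, all on the array, of which 15 were measured. None was called. At an unadjusted limma p under 0.05, 1 was higher and 0 lower in cHF+F versus cHF, 3 higher and 0 lower in cHF+ROSI versus cHF, and 1 higher and 1 lower in cHF+F versus cHF+ROSI. Of all 15958 kept probes, 455 were higher and 639 lower, 270 higher and 480 lower, and 642 higher and 423 lower in the same order. The median log2 difference was 0.05, 0.02 and -0.01, against -0.01, -0.01 and 0.00 over all genes.
Nampt, the rate-limiting enzyme of NAD salvage and a clock output, differed by 0.25 (SE 0.08, adjusted p 0.434 by limma) in cHF+F versus cHF and by 0.31 (SE 0.08, adjusted p 0.996) in cHF+ROSI versus cHF. Csnk1d, a kinase of the PER proteins, differed by 0.22 (SE 0.08) and Fbxw11, a ubiquitin ligase part that acts on them, by 0.20 (SE 0.08) in cHF+ROSI versus cHF. Csnk1d differed by -0.17 (SE 0.08) and the kinase gene Gsk3b by 0.16 (SE 0.07) in cHF+F versus cHF+ROSI. None of these had an adjusted p below 0.434.
Against Dbp, the 15 genes had r from -0.66 (Nfil3, a repressor at D-boxes) to 0.64 (Bhlhe40, a repressor at E-boxes), and Hlf, of the family of Dbp and Tef, had 0.60. Against Arntl they had r from -0.69 (Ciart, a repressor of the BMAL1 pair) to 0.37 (Nfil3). None passed the adjusted permutation test, where the lowest adjusted p was 0.129 with Dbp and 0.150 with Arntl.

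Markers of other cell types were set beside both anchors. Of 4 macrophage markers (Emr1, Cd68, Csf1r and Lyz2), the median r was 0.45 with Arntl and -0.41 with Dbp, the highest being Lyz2 with Arntl at 0.61 (adjusted permutation p = 0.324), and 3 of the 4 were well above background on all 24 arrays. Slow fibre, adipocyte, liver and blood markers had median r between -0.09 and 0.16 with either gene. The part of these cells in the clock values was not tested. All 3 slow fibre markers (Myh7, Tnni1 and Tnnc1) were lower in cHF+F versus cHF at an unadjusted limma p under 0.05, with a median of -0.80, and none was called. In cHF+ROSI versus cHF, all 5 measured liver markers were higher in value (median 0.69; Apoa2 with an unadjusted limma p of 0.036) and all 3 blood markers lower in value (median -0.47; Hba-a1 with 0.0383), with none called.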

How the data were processed

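Agilent 2-colour mouse arrays with probes placed on mm8 were read for 24 mice in 3 diet groups of 8, grouped by the labels. Scanner intensities were deposited for both channels, extracted with Feature Extraction 10.5.1.1 per the file headers and 10.5.5.1 per the labels. From them median spot intensities were background-corrected by normexp (offset 50) and normalized within each array by loess (span 0.3). Flagged spots were left out. Probes were kept with at least 4 unflagged arrays per group and a mean signal to background of at least 2 in both channels. The log2 ratios of mouse over pool were fitted in limma 3.58.1 (R 4.3.3) for the 3 groups together, without a block, with Benjamini-Hochberg adjustment over all 15958 kept probes. The authors also deposited a table of normalized log2 signals for cHF and cHF+F, used as an alternative, with 8 columns of another diet not used here. It named the diet of a mouse but not its array.

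The clock genes and gene lists were chosen with earlier results of these data known. Each gene was described by all its probes, with the brightest kept probe in the lead. Of the other clock genes, those with an unadjusted p under 0.05 were named, at most 5 per comparison. The genes most like Arntl or Dbp were the 5 with the highest and the 5 with the lowest r with diet means removed. The clock genes themselves were left out of that search. Correlations had 100000 permutations of the arrays, adjusted over all kept probes. No 2 arrays held identical values. The number of arrays limits the precision. The tests were checked on simulated data. The alternatives changed the background correction, the normalization, the filter, the slides and arrays used, the block, the weights and the test.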

Additional observations from a re-analysis of the deposited data

Results flagged for a closer look

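Of 27 sets of mice (9 clock genes in 3 diets), 3 held a mouse whose distance to its nearest neighbour was large for the range of its group; chance gives about 1 in 20. Cry2 was -1.53 in cHF+ROSI 1, where the other 7 mice of that diet lay between -0.30 and 0.08 on the log2 scale. Clock was 0.39 in cHF+F 1 and -0.22 in cHF+ROSI 7. The Clock difference in cHF+F versus cHF+ROSI was 0.12 without the latter mouse, with an unadjusted limma p of 0.0577 and an adjusted p of 0.851.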

How the results depend on the processing

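No clock gene probe was called between diets in any setting run. Over all probes, cHF+F versus cHF gave 0 calls, but 3 with no filter on signal, 6 with the replicate block and 13 with array weights; leaving out each mouse gave 0 to 2 calls there (2 without cHF+F 8), 0 in cHF+ROSI versus cHF and 0 to 2 in cHF+F versus cHF+ROSI (2 without cHF+ROSI 7). Clock gene probes at an unadjusted p under 0.05, 1, 1 and 2 in the 3 comparisons, were 0, 0 and 0 with median centring, 0, 2 and 1 with Cy5 alone and without the slides of replicates 1 to 3, 0, 1 and 1 with signal to background of at least 3, 2, 3 and 2 with no filter, and 2, 2 and 2 with the replicate block. In cHF+ROSI versus cHF they were 0 with the scanner's processed signals or with the flagged Dbp spot kept, 2 with no background correction, and 3 with the methods' t-test or without cHF 3 and cHF+ROSI 4. Leaving out each mouse gave 0 to 2, 0 to 3 and 1 to 3, and the cause was not tested. The share of all probes under that p was not counted in these settings. Their counts therefore mark nothing particular to the clock genes.

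Arntl and Dbp kept a negative r in every setting run. With Arntl as the anchor the relation passed the adjusted permutation test with processed signals (-0.88), no background correction (-0.87), Cy5 alone (-0.74), the replicate block (-0.77), diet means removed (-0.82) and 1000000 permutations (-0.84, adjusted p 0.0479). With Dbp as the anchor it no longer passed with median centring (-0.16), Cy5 alone (-0.74), no filter (-0.84, over more probes), the authors' log2 table (-0.73), without the slides of replicates 1 to 3 (-0.80) and by rho (-0.75). Leaving out each mouse gave -0.87 to -0.81, with an adjusted permutation p of 0.0319 to 0.160 for the first anchor and 0.0228 to 0.0638 for the other. For the first anchor the unadjusted p was 1e-05 whichever mouse was left out, the smallest the permutations can give. Its range of adjusted p therefore shows no change in this relation.

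With median centring r turned to 0.20 for Per1, 0.35 for Nr1d2 and 0.30 for Tef with Arntl and to 0.15 for Clock with Dbp. With Cy5 alone it turned to -0.53 for Clock, 0.30 for Per1, -0.45 for Nr1d1 and 0.00042 for Tef with Arntl and to 0.12 for Clock with Dbp, and the Clock difference in cHF+F versus cHF+ROSI turned to -0.021. A further 24 differences and 10 correlations with p over 0.05 in both settings changed sign, as did 17 and 6 when a mouse was left out; the causes were not tested. For r, the replicate block stands for residuals from diet and slide means, with no correction for the degrees of freedom these take. Its permutation p can therefore be too small.

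Replicate numbers are slide numbers. Of 24 pairs of mice with the same number, deviations from the diet means had r of -0.11 to 0.64, 18 over 0.1. In 14 of these pairs r was above the highest r with another number. The pairs share mice. Not every pair was over 0.1, and the study's methods name no block, so the main fit and the permutations of arrays do not hold the slide. Slide took 3.20% (Per2) to 61.6% (Tef) of the sum of squares within diets, a share not counted over all kept probes. With the replicate block the Dbp difference in cHF+ROSI versus cHF was 0.51 (unadjusted limma p 0.0258) and no clock gene probe was called. That block does not separate diet from the position on the slide. Alternatives with the flagged spot, without the arrays that stood apart, and with 1000000 permutations were chosen after seeing the data. Dim probes, Per3 among them, limit what can be said of the genes they stand for.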

Other observations

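The genes most like Arntl and Dbp, other than the clock genes described above, were sought among 10785 genes by r over mice with diet means removed. By this measure Arntl and Dbp had r = -0.82 with each other. Nearest to Dbp were D830039M14Rik (0.84), Tspan4, a membrane tetraspanin (0.84), Cadm1, a cell adhesion molecule (0.82), Sft2d3 (0.82) and Stard3, a sterol transfer protein (0.80). Most opposed to it were Rpl7l1 (-0.82), the nuclear pore gene Nup37 (-0.76), the chaperone Hsp90aa1 (-0.76), the adenine nucleotide carrier Slc25a5 (-0.75) and Mrpl19 (-0.74). Of these 10, the adjusted permutation p of r over 23 mice was 0.0456 for each of Tspan4, Cadm1 and Stard3 and 0.0935 or more for the other 7.

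Nearest to Arntl were Mcfd2 (0.72), Dapp1 (0.71), Ccdc25 (0.69), the G protein gene Gna13 (0.68) and Acly, which makes acetyl-CoA for lipid synthesis (0.68). Most opposed were C1qtnf4 (-0.81), Hnrnpul1 (-0.77), Inpp5k (-0.76), Imp3 (-0.74) and Fbxo7 (-0.74). None of these 10 passed the adjusted permutation test over 24 mice, where the lowest adjusted p was 0.0532 for Inpp5k. The unadjusted permutation p of Inpp5k was 1e-05, the smallest that the permutations can give. The test therefore cannot decide whether Inpp5k would pass with more permutations.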
